A study of Mus musculus with 12 samples.

Results

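The genes described here are 10 markers of the spermatogonial state, Zbtb16, Gfra1, Sall4, Uchl1, Crabp1, Tcl1, Lin28a, Nanos3, Foxo1 and Etv5, followed across mouse testis germ cells of 2 genotypes and 2 times. They were chosen by gene symbol: 10 of the 55450 genes in the count tables, each symbol with 1 identifier and all 10 annotated as protein coding. Their values did not enter the choice, although earlier results of these data were known when it was made. The cells came from C57BL/6 testes in 4 groups of 3 libraries: Zfp541 knockout (KO) at 260 h, wild type (WT) at 260 h, KO at 360 h and WT at 360 h, the hours being counted from an injection of retinoic acid. All 4 groups shared the same earlier treatment: from 2 days of age the pups were fed WIN 18,446, an inhibitor of retinoic acid synthesis, for 7 days, and the injection came on day 8. The 260 h libraries were labelled early pachytene and the 360 h libraries late pachytene. ZFP541 is a zinc finger protein of spermatocytes. Single cells were picked by mouth pipette, and unique molecular identifiers (UMIs), which mark single cDNA molecules, were counted at the 3′ ends of transcripts. The labels do not describe the knockout allele, nor do they tie the libraries to animals, so every p-value below measures the spread between libraries, which may be technical.

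Spermatogonia are the mitotic germ cells of the testis. A small undifferentiated pool self-renews under glial cell line-derived neurotrophic factor (GDNF) from Sertoli cells, and retinoic acid drives its progeny to differentiate, switch on Stra8 and enter meiosis. Blocking retinoic acid synthesis and then restoring it makes the germ cells advance nearly in step, and spermatocytes of the pachytene stage, in which homologous chromosomes are fully paired, normally have low levels of these markers. Among the 10 genes, Gfra1 encodes the GDNF receptor and Etv5 a transcription factor induced by GDNF. Zbtb16 (PLZF), Sall4 and Foxo1 encode transcription factors of undifferentiated spermatogonia. Lin28a and Nanos3 encode RNA-binding proteins. Uchl1 encodes a ubiquitin hydrolase that stains spermatogonia, Crabp1 a protein that binds retinoic acid in the cytoplasm and Tcl1 a coactivator of AKT kinase.

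The authors' cell table kept 929 of 1152 barcodes, 50 to 94 cells per library, with 44624 to 565099 gene UMIs per cell and 3601518 to 27202665 per library. The 12 libraries used the same 96 barcode sequences. The table gave 5 clusters in 3 classes: cluster 1 was pre-meiotic (137 cells), clusters 2 and 3 early pachytene, and clusters 4 and 5 late pachytene. At 360 h the late pachytene cells of KO libraries were in cluster 4 and those of WT libraries in cluster 5. At 260 h the early pachytene cells of the 3 KO libraries and of WT library 3 (72 cells) were in cluster 3, whereas those of WT library 1 (25 cells) were in cluster 2, as were 56 of the 57 of WT library 2. Pre-meiotic cells were 23, 20 and 18 in the KO libraries at 260 h, against 24, 11 and 17 in the WT libraries. At 360 h there were 0, 9 and 10 in the KO libraries, against 2, 2 and 1 in the WT libraries. KO library 1 at 360 h therefore differed from the other KO libraries of its group in having no pre-meiotic cell, and WT library 3 at 260 h differed from its group in its cluster. Among the 10 genes with the highest fold in each cluster, cluster 2 had the somatic markers C1qb (macrophage) and Cyp11a1 (Leydig). Cluster 3 had Sohlh2, a listed marker of differentiating spermatogonia, and neither cluster had a listed pachytene marker there. The early pachytene class was therefore described by cluster, and the fit on its cells was kept only as an alternative setting. Clusters 4 and 5 had no listed marker of any class among those genes, so this check did not mark them as pachytene either. Most of the genes there were on no list, among them Rad51ap2 and Mnd1 in cluster 3 and Tekt3 and Ggn in cluster 5. The check read only listed genes and therefore could not decide the class of a cluster. Zfp541 itself was at 122.6, 99.06 and 75.77 CPM (UMIs per 1e6 UMIs of the library, scaled with TMM) in the KO libraries at 260 h, against 38.07, 84.12 and 128.8 CPM in the WT libraries. The 360 h values were 156.2, 130.5 and 150.6 CPM for KO libraries, against 199.8, 177.8 and 169.6 CPM for WT libraries. The log2 fold changes, 0.24 ± 0.34 at 260 h (SE, adjusted p = 0.847) and -0.32 ± 0.34 at 360 h (adjusted p = 0.532), did not pass the test. A 3′ tag cannot check a deletion whose place is not given.

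In mm10 coordinates of the deposited feature table, the plus-strand members are Uchl1 (chr5:66676091-66687234), Crabp1 (chr9:54764748-54773110) and Foxo1 (chr3:52268336-52353221). On the minus strand are Zbtb16 (chr9:48654297-48836222), Gfra1 (chr19:58235604-58455909), Sall4 (chr2:168748332-168767943), Tcl1 (chr12:105216750-105222793), Lin28a (chr4:134003330-134018841), Nanos3 (chr8:84173731-84185217) and Etv5 (chr16:22381309-22439719). Counts were given per gene, not per exon. The stretches of DNA around the start sites of the members that the 360 h comparison turned on are shown for orientation, from RefSeq (GRCm38.p6), 250 bases before to 50 bases after the start. The 3 called higher in KO libraries are Uchl1 at chr5:66675871-66676170 on the plus strand, Foxo1 at chr3:52268087-52268386 on the plus strand and Tcl1 at chr12:105222688-105222987 on the minus strand. Nanos3, at chr8:84176503-84176802 on the minus strand, is shown because it went the other way in late pachytene cells. Capitals mark the GC box, GGGCGG or its reverse complement CCGCCC.
Uchl1: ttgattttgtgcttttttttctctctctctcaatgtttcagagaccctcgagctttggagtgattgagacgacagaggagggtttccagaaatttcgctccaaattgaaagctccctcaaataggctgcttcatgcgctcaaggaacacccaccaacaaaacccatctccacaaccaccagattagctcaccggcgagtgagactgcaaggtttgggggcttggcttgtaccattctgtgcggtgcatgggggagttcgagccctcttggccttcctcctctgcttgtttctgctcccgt
Foxo1: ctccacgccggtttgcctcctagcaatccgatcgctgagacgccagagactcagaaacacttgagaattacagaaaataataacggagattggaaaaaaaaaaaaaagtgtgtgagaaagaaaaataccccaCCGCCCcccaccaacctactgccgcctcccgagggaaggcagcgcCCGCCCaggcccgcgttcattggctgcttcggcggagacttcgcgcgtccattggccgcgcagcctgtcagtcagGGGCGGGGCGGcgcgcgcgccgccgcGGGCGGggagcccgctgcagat
Tcl1: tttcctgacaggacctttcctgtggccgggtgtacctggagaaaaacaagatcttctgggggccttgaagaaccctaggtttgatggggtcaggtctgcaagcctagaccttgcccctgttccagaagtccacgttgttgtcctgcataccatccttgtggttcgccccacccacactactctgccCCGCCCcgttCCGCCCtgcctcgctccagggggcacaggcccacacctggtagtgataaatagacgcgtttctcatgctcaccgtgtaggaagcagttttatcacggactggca
Nanos3: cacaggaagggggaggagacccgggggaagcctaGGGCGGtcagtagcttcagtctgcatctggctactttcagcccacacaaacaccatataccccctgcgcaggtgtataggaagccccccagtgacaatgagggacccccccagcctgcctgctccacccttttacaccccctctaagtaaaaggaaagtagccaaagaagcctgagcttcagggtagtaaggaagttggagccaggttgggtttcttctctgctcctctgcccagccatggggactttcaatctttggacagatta
Of the 10 members, 8 had an entry in this table. Zbtb16 and Sall4 had none, and Etv5 had 2. The GC box was searched on both strands with overlapping matches counted, and it stood in 35.66% of the 32851 promoters of the table. It was found 5 times in Foxo1 and Crabp1, 2 times in Tcl1, 1 time in Nanos3 and Lin28a, 3 times and 0 times in the Etv5 starts, and 0 times in Uchl1 and Gfra1. Uchl1 and Foxo1, which moved the same way at 360 h, thus differed in this motif. An E box (CACGTG, in 7.15% of promoters), a nuclear receptor half-site (AGGTCA, 16.26%) and a TATA box (TATAAA, 13.62%) were each found in 0 of the members' entries. GC content was 50.67% for Uchl1, 61.33% for Foxo1, 56.67% for Tcl1 and 55.33% for Nanos3, against a median of 52.67% over the table.

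Each of the 10 genes had its highest median level in cluster 1, the pre-meiotic class. Levels by cluster are UMIs per 1e6 gene UMIs of the cells of that cluster in 1 library, without TMM scaling (unscaled CPM), over the libraries with at least 5 cells there. They are a description without a test, because the clusters were made from the same cells and genes. Uchl1 had a median of 1056 unscaled CPM in cluster 1 (820.6 to 1143 over 8 libraries), against 154.4, 122.8, 166.9 and 25.6 in clusters 2, 3, 4 and 5. Zbtb16 had 130.6 (52.5 to 268.2), against 6.73, 6.47, 2.54 and 0.775. The fall from cluster 1 was thus steeper for the transcription factor than for the hydrolase.

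Sall4 was at 137.4 unscaled CPM in cluster 1, and at 10.4, 7.46, 13.3 and 2.14 in clusters 2 to 5. Foxo1 was at 130.1, and at 20.5, 39.2, 15.9 and 2.95. These transcription factors differed in which pachytene cluster was highest, cluster 4 for Sall4 and cluster 3 for Foxo1. Lin28a was at 59.3 unscaled CPM in cluster 1 and at 4.49, 8.65, 5.29 and 0.413 in clusters 2 to 5. Nanos3 was at 68.0, and at 10.9, 6.05, 1.80 and 3.32, so that its lowest cluster was cluster 4 and not cluster 5. Crabp1 was at 200.9 unscaled CPM in cluster 1 and at 19.5, 24.1, 12.5 and 2.75 in clusters 2 to 5. Tcl1 was at 28.3, and at 3.70, 11.4, 1.39 and 0.295. Etv5 was at 10.3, and at 0.561, 2.73, 2.43 and 0.554, and Gfra1 at 14.9, and at 1.12, 1.33, 1.04 and 2.00. Cluster 5, the WT late pachytene cluster, was the lowest for 8 of the members, the exceptions being Nanos3 and Gfra1, which were lowest in cluster 4.

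**Figure D1:**
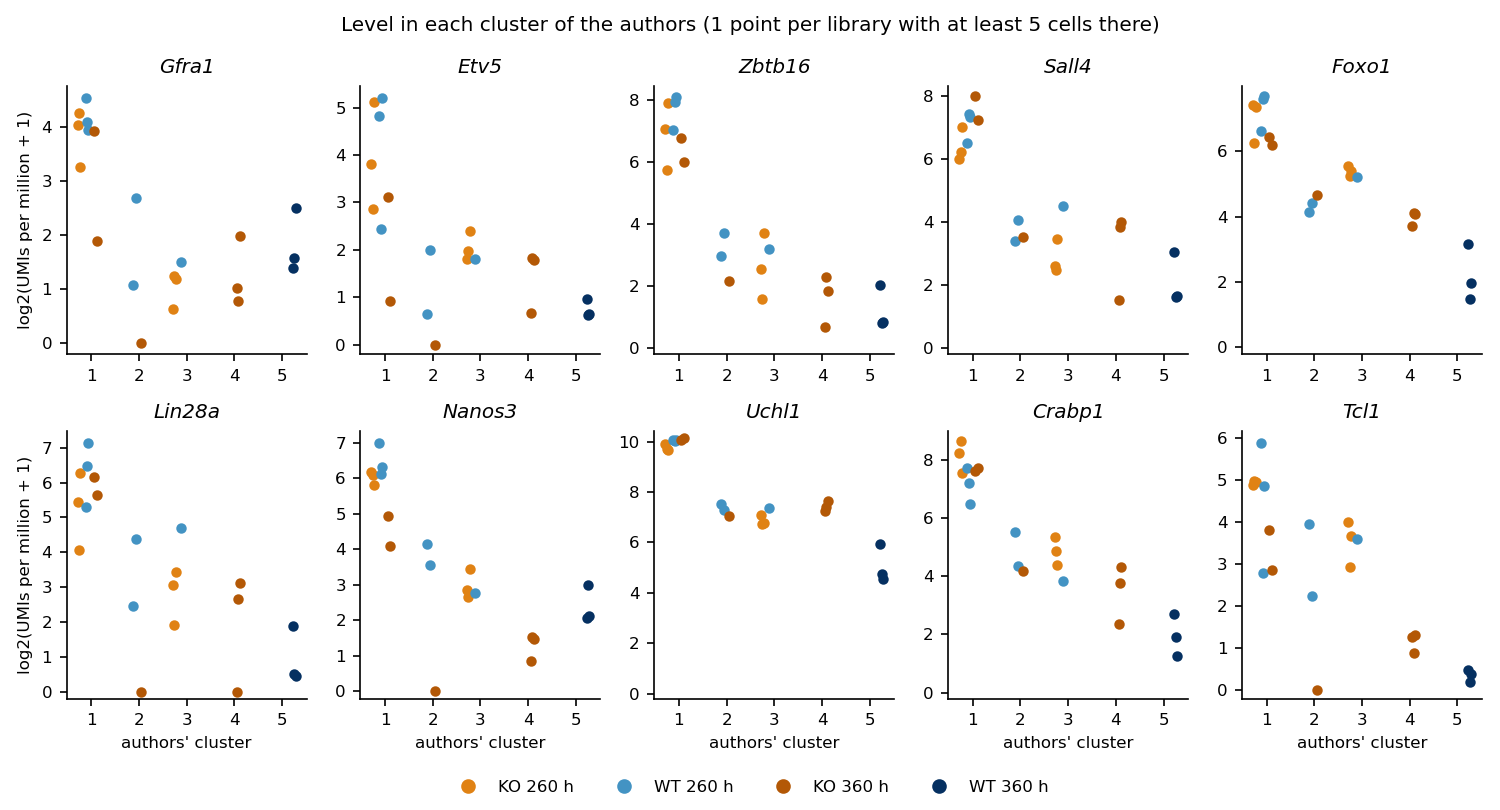
Level of each gene in the 5 clusters of the authors, as log2 of unscaled CPM plus 1 on the y axis, with 1 point per library that had at least 5 cells in the cluster and colours for the 4 groups. Cluster 1 is the pre-meiotic class and stands above the others for Zbtb16, Sall4, Uchl1 and Crabp1 in every library shown, while Uchl1 in cluster 4 (149.5 to 200 unscaled CPM) stands above cluster 5 (22.2 to 60.8).

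The 137 pre-meiotic cells were 14.75% of the cells and held 10.74% of the gene UMIs, but 84.7% of the Zbtb16 UMIs, 71.0% of those of Crabp1, 65.3% of Sall4 and 64.5% of Nanos3. Their share was 58% for Etv5, 56.8% for Lin28a, 55.1% for Uchl1, 51.1% for Foxo1, 49.5% for Tcl1 and 41.2% for Gfra1. Within a library, the level in the pachytene classes could be set against the level in the pre-meiotic class, in 8 libraries with at least 5 pre-meiotic cells. For Zbtb16 it was 3.85% (median, 3.05% to 5.07%), the lowest median of the 10 genes. It was 8.60% for Sall4, 9.85% for Nanos3, 11.9% for Crabp1, 14.9% for Uchl1 (12.6% to 17.6%), 16.8% for Lin28a, 20.6% for Foxo1 and 31.0% for Tcl1. The share left in pachytene cells therefore differed between the genes within the same libraries. For Gfra1 (3.64% to 108.1%) and Etv5 (1.73% to 266.5%) the ratio was not stable, and both had few UMIs in all (471 and 400). After each cell was thinned to 40000 UMIs, a pre-meiotic cell had a median of 6 of the 10 genes detected in KO cells and 7 in WT cells at 260 h. A pachytene cell had 3 and 4 at 260 h, and 2 in KO cells and 1 in WT cells at 360 h.

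At 360 h, the question was whether the libraries labelled Zfp541 KO differ from WT libraries in these genes. Of the 10 members, 3 were higher in KO than in WT libraries and 0 were lower, at an adjusted p under 0.05 in edgeR's quasi-likelihood test. They were Uchl1, Foxo1 and Tcl1. Over all 20279 genes tested, 8.93% were called higher, 13.5% lower and 22.5% in either direction. The same 3 were the members whose KO libraries all lay above the WT libraries, as did 19.6% of all genes. The median log2 fold change of the members was 1.57, against 0.03 over all genes. A library is the sum of its cells, so in these sums fewer cells of a type and less RNA per cell cannot be told apart.

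Uchl1 was at 162.9, 245.7 and 289.7 CPM in the KO libraries at 360 h, against 101.5, 56.8 and 27.3 CPM in the WT libraries. The lowest KO library was above the highest WT library, the means were 232.7 ± 64.4 and 61.9 ± 37.3 CPM (SD, n = 3 each), and the log2 fold change was 1.91 ± 0.41 (SE, adjusted p = 0.0036). Foxo1 was at 13.1, 22.6 and 21.1 CPM in KO libraries, against 11.9, 3.30 and 3.63 CPM in WT libraries, so the groups were separated by a small gap. Its log2 fold change was 1.6 ± 0.45 (adjusted p = 0.0169). Tcl1 was at 1.51, 1.95 and 1.90 CPM in KO libraries, against 0.550, 0.189 and 0.354 CPM in WT libraries, low in both groups, and its log2 fold change was 2.26 ± 0.71 (adjusted p = 0.0293). The Tcl1 values rest on only 12, 19 and 21 UMIs in the KO libraries and 6, 2 and 8 in the WT libraries. The Uchl1 call held in every run that left out 1 library and in all 10 other alternatives. Without KO library 2, KO library 3, WT library 2 or WT library 3 at 360 h, Foxo1 had adjusted p of 0.0785, 0.0552, 0.0863 and 0.0678, and Tcl1 had 0.0876, 0.0767, 0.113 and 0.0818. With libraries scaled to spike-in RNA, which moved the all-gene median by -0.52, Foxo1 was at 1.15 (adjusted p = 0.198) and Tcl1 at 1.72 (adjusted p = 0.126).

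The transcription factors Sall4 and Zbtb16, the RNA-binding protein gene Lin28a and Crabp1 were split within the KO group. Sall4 was at 2.02, 35.4 and 27.8 CPM in the KO libraries, against 14.0, 6.04 and 2.57 CPM in the WT libraries. Zbtb16 was at 0.630, 13.4 and 8.52 CPM in KO libraries, against 4.95, 2.45 and 0.929 CPM in WT libraries. In both, KO library 1 was below every WT library while KO libraries 2 and 3 were above them. Lin28a had 0 UMIs in KO library 1, which allows up to 0.347 unscaled CPM (3 counts, counting error only), and 11.1 and 11.7 CPM in KO libraries 2 and 3, against 3.85, 1.23 and 0.442 CPM in WT libraries. Crabp1 was at 4.54, 29.5 and 37.9 CPM in KO libraries, against 11.5, 7.07 and 1.95 CPM in WT libraries. Their log2 fold changes were 1.54 ± 0.76 for Sall4 (adjusted p = 0.169), 1.48 ± 0.81 for Zbtb16 (adjusted p = 0.216), 2.08 ± 1.10 for Lin28a (adjusted p = 0.199) and 1.84 ± 0.81 for Crabp1 (adjusted p = 0.129). Without KO library 1, which held no pre-meiotic cell, all of these were called. Their log2 fold changes were then 2.01, 1.94, 2.60 and 2.25, with adjusted p of 0.0162, 0.0423, 0.0239 and 0.0406. In that run 7 of the 10 members were called, where 1721 of the 22282 genes tested were called higher and 2458 lower.

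Etv5 was at 0.630, 2.87 and 2.18 CPM in KO libraries, against 1.10, 0.849 and 0.664 CPM in WT libraries (log2 fold change 1.13 ± 0.71, adjusted p = 0.269). Nanos3 was at 0.882, 4.41 and 3.17 CPM in KO libraries, against 4.03, 10.4 and 3.98 CPM in WT libraries (log2 fold change -1.10 ± 0.62, adjusted p = 0.220). Gfra1 was at 1.14, 1.95 and 2.81 CPM in KO libraries, against 2.02, 2.74 and 5.57 CPM in WT libraries (log2 fold change -0.81 ± 0.62, adjusted p = 0.374). The groups overlapped for Etv5, Nanos3 and Gfra1. The summed level of 12 listed markers of Sertoli cells, the somatic cells that nurse germ cells, moved with the split in the KO group. The sum was 84.1, 258.8 and 257 CPM in KO libraries, against 124.4, 98.3 and 54.8 CPM in WT libraries. Of these 12 genes, 11 were tested and 11 had a positive fold change, with no call. Clu, the highest, was at 44.5, 154.6 and 125.6 CPM in KO libraries, against 59.8, 56.5 and 31.9 CPM in WT libraries, with a log2 fold change of 1.13 ± 0.43 (adjusted p = 0.0730). The defining marker Amh was at 0.126, 0.820 and 0 CPM, against 0.183, 0 and 0.044 CPM. Some listed markers did not follow the split: in KO libraries Gata1 was at 6.56, 3.28 and 4.99 CPM. Fshr was at 1.26, 1.23 and 0.907 CPM there, and Dhh at 2.90, 4.10 and 2.27 CPM. The part of the Sertoli markers in the result was not tested.

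**Figure D2:**
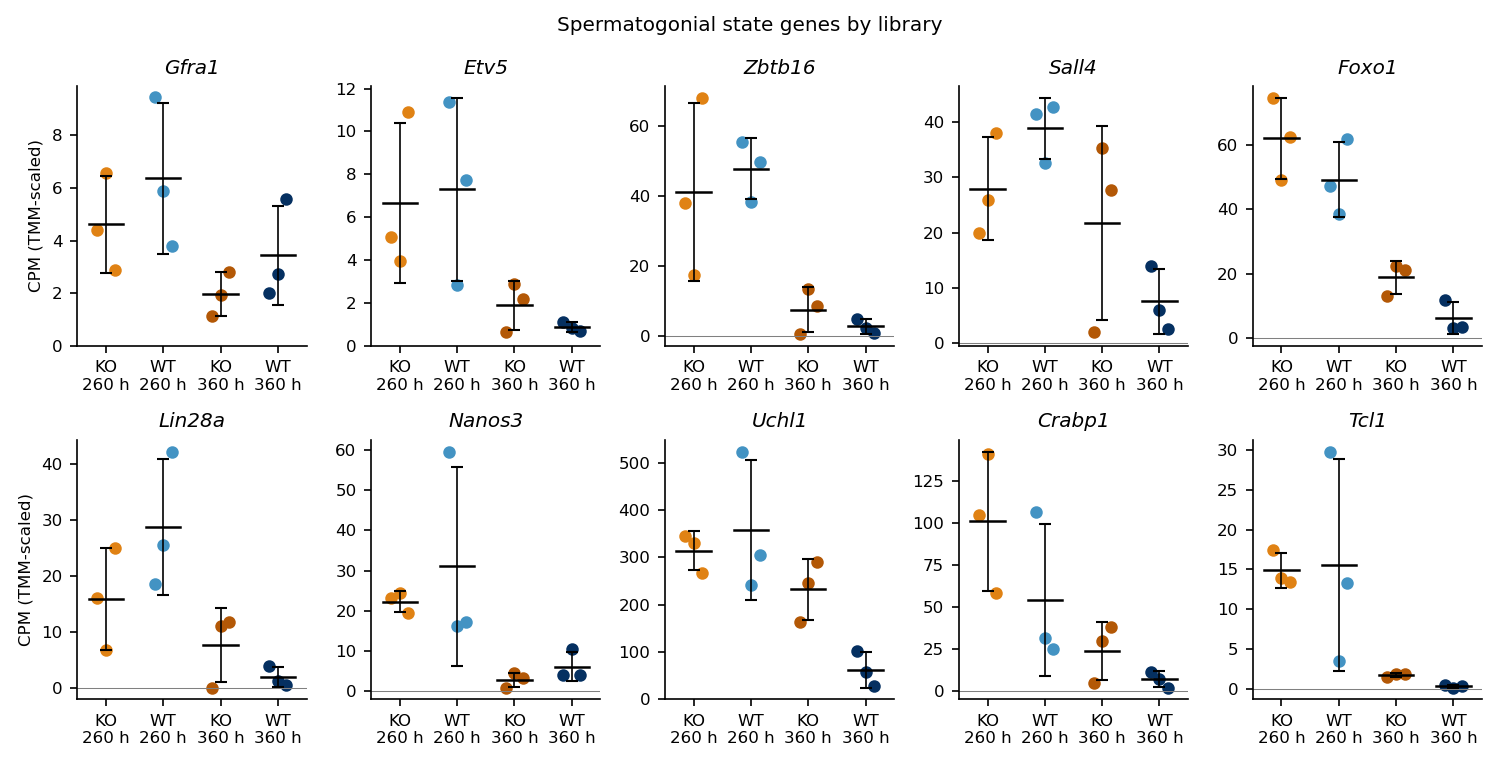
Level of each gene in CPM (TMM-scaled, linear y axis) in each of the 12 libraries, by group; bars are means and whiskers 1 SD over 3 libraries. At 360 h Uchl1 is at 162.9 to 289.7 CPM in KO libraries, above the WT libraries, and for Sall4 and Lin28a 1 KO library lies at or near 0.

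**Figure D3:**
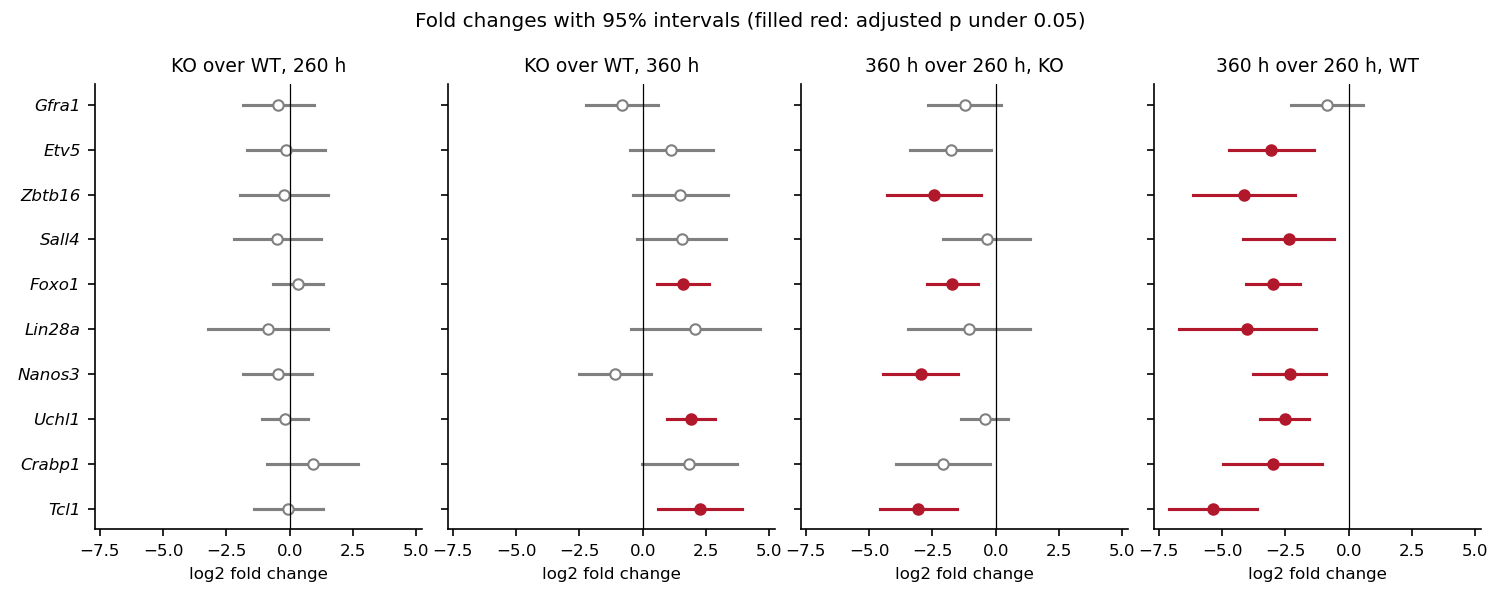
Log2 fold changes of the 10 genes with 95% intervals in 4 comparisons; filled red points have an adjusted p under 0.05 and open grey points do not. The counts of filled points are 0 for KO over WT at 260 h, 3 at 360 h, 4 for 360 h over 260 h in KO and 9 in WT.

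To ask about the late pachytene cells themselves, the counts were summed over the cells of that class only, which were cluster 4 in KO libraries and cluster 5 in WT libraries. In this fit 25.1% of the 18692 genes tested were called (10.4% higher, 14.7% lower), and among the members Uchl1, Foxo1 and Tcl1 were called higher and Nanos3 lower in KO cells. Uchl1 was at 160, 164.8 and 194.2 CPM in KO cells, against 68.1, 33.9 and 25.7 CPM in WT cells, a log2 fold change of 2.03 ± 0.33 (adjusted p = 0.000252). The KO libraries were close to each other, with or without pre-meiotic cells in the library. After thinning each cell to 40000 UMIs, 97.4%, 98.59% and 100% of the pachytene cells of the KO libraries had a Uchl1 UMI (227 cells, 7 of them early pachytene), against 83.13%, 45.05% and 47.31% in the WT libraries (267 cells). Before thinning the shares were 100% in each KO library, against 100%, 89.01% and 82.8% in the WT libraries. Foxo1 was at 12.9, 16.0 and 15.4 CPM in KO cells, against 8.96, 2.37 and 3.42 CPM in WT cells (log2 fold change 1.59 ± 0.46, adjusted p = 0.0174).

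Tcl1, at 1.49, 0.830 and 1.44 CPM in KO cells against 0.435, 0.182 and 0.342 CPM in WT cells, had a log2 fold change of 1.91 ± 0.69 (adjusted p = 0.0479). It rested there on 12, 7 and 14 UMIs in the KO libraries and 5, 2 and 8 in the WT libraries. It lost the call when early pachytene cells were kept beside the late ones (1.89, adjusted p = 0.0509). Nanos3 was at 0.867, 1.90 and 1.74 CPM in KO cells, against 3.57, 9.21 and 3.84 CPM in WT cells, and every KO library was below every WT library. Its log2 fold change was -1.86 ± 0.59 (adjusted p = 0.0283), whereas in the sums over all cells it was not called. Crabp1 was at 4.46, 12.3 and 18.5 CPM in KO cells, against 6.18, 3.65 and 1.62 CPM in WT cells (log2 fold change 1.64 ± 0.61, adjusted p = 0.0594), and the groups overlapped through KO library 1. Sall4, at 1.98, 13.2 and 14.5 CPM in KO cells against 8.09, 2.74 and 2.48 CPM in WT cells, and Lin28a, at 0, 5.22 and 7.49 CPM against 3.05, 0.547 and 0.427 CPM, kept the split of KO library 1 from the other KO libraries although no pre-meiotic cell was in these sums. Zbtb16 was at 0.619, 3.80 and 2.46 CPM in KO cells, against 3.39, 1.00 and 0.896 CPM in WT cells, which overlapped. KO library 1 and WT library 3, the libraries of each genotype with the fewest pre-meiotic cells (0 and 1), were also the lowest of their genotype for Uchl1, Zbtb16, Sall4, Lin28a, Crabp1 and Etv5 in late pachytene cells. This did not hold for Foxo1, Tcl1, Nanos3 and Gfra1, and Gfra1 was highest of the WT libraries in WT library 3. The WT libraries had only 2, 2 and 1 pre-meiotic cells, WT libraries 2 and 3 were close for Zbtb16 and Sall4, and WT library 3 had the most UMIs. Whether RNA or barcodes from pre-meiotic cells entered these values was not tested.

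**Figure D4:**
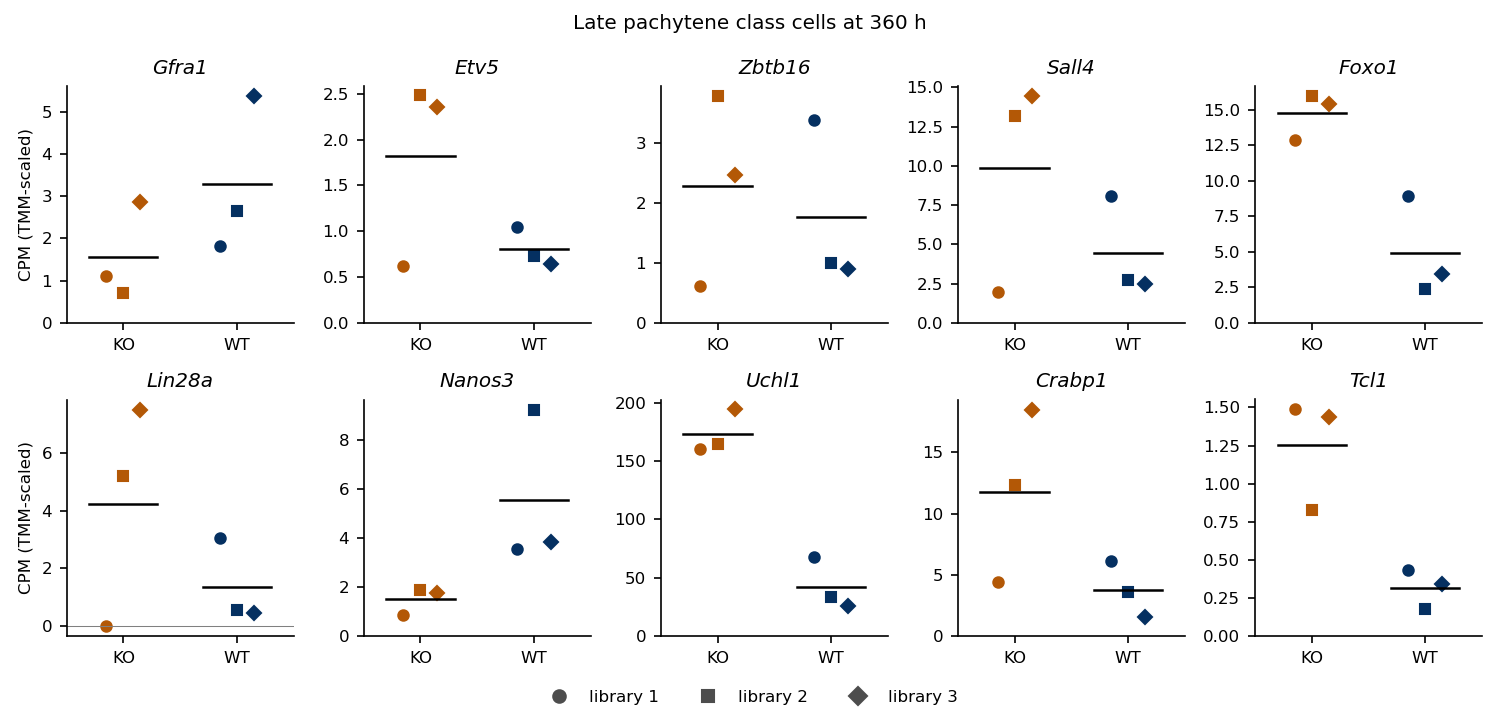
Level in CPM (TMM-scaled, linear y axis) of each gene in the cells of the late pachytene class at 360 h, with KO left of WT, symbols for the library number and bars for group means. Uchl1, Foxo1 and Tcl1 are higher in all 3 KO libraries and Nanos3 lower, whereas for Sall4, Lin28a and Zbtb16 KO library 1 lies below KO libraries 2 and 3.

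At 260 h, 0 of the 10 members were called between KO and WT, where 1.89% of the 20279 genes tested were (0.582% higher, 1.31% lower). At an unadjusted p under 0.05, edgeR and DESeq2 each gave 0 members, against 2633 genes in edgeR, and DESeq2 also called 0 after adjustment. The groups overlapped for all 10 members, while KO libraries were all above WT libraries for 7.25% of all genes and all below for 7.34%. The median log2 fold change was -0.20, against -0.01 over all genes. Crabp1 had the highest, 0.91 ± 0.78 (adjusted p = 0.718), with 104.7, 141.1 and 58.3 CPM in KO libraries against 106.6, 31.8 and 24.8 CPM in WT libraries. WT library 1, the WT library with the most pre-meiotic cells, stood with the KO libraries. Lin28a had the lowest, -0.86 ± 1.03 (adjusted p = 0.813), with 16.1, 6.70 and 24.9 CPM in KO libraries against 18.4, 25.4 and 42.2 CPM in WT libraries. Its 95% interval, -3.24 to 1.51, leaves room for a large difference either way.

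Uchl1 was at 344.5, 331.4 and 267.7 CPM in the KO libraries at 260 h, against 524, 241.7 and 305.9 CPM in the WT libraries (log2 fold change -0.18 ± 0.40). Foxo1 was at 74.4, 49.3 and 62.4 CPM in KO libraries, against 47.3, 38.6 and 61.8 CPM in WT libraries (0.33 ± 0.43). Zbtb16 was at 37.8, 17.5 and 67.95 CPM in KO libraries, against 55.3, 38.2 and 49.7 CPM in WT libraries (-0.22 ± 0.76), with both the lowest and the highest library in the KO group. Sall4 was at 19.8, 25.9 and 38.1 CPM in KO libraries, against 41.4, 32.6 and 42.7 CPM in WT libraries (-0.48 ± 0.74). Nanos3 was at 23.1, 24.4 and 19.4 CPM in KO libraries, against 59.6, 16.2 and 17.3 CPM in WT libraries (-0.47 ± 0.59), and Tcl1 at 17.4, 14.0 and 13.4 CPM, against 29.8, 3.56 and 13.3 CPM (-0.05 ± 0.59). In both, WT library 1 was the highest of the 6. Gfra1 and Etv5 were at 2.88 to 6.57 and 3.97 to 10.9 CPM in KO libraries, against 3.79 to 9.46 and 2.85 to 11.4 CPM in WT libraries. Leydig and macrophage markers differed between the WT libraries: the 9 Leydig genes summed to 18.1, 33.3 and 23.9 CPM in KO libraries, against 114.9, 78.4 and 35.4 CPM in WT libraries. Of these, 8 were tested and 1, the steroid enzyme gene Hsd3b1, was lower in KO libraries (log2 fold change -5.61 ± 1.26, adjusted p = 0.0295), where 1.31% of all genes were. Hsd3b1 was at 0.275, 0.137 and 0.206 CPM in KO libraries, against 22.5, 10.3 and 0.364 CPM in WT libraries. WT library 3 was thus near the KO level. The defining marker Insl3 was at 0 in all 3 WT libraries and at 0.184, 7.25 and 0 CPM in KO libraries. Their part in the members' values was not tested.

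By cluster at 260 h, the WT library that shared cluster 3 with the KO libraries gave the closest comparison, without a replicate on the WT side. In cluster 3, Sall4 was at 5.04, 4.50 and 9.88 unscaled CPM in KO libraries, against 21.6 in WT library 3, and Lin28a at 7.42, 2.74 and 9.88, against 24.9. Foxo1 was at 45.6, 37.1 and 41.2 unscaled CPM in KO libraries, against 36.2 in WT library 3. In cluster 2, WT libraries 1 and 2 had 16.8 and 20.5 unscaled CPM of Foxo1, 9.53 and 15.8 of Sall4, and 4.49 and 19.7 of Lin28a. Uchl1 in cluster 3 was at 136.1, 105.6 and 109.5 unscaled CPM in KO libraries, against 165.6 in WT library 3. Crabp1 was at 39.76, 28.35 and 19.76 there, against 13.33. WT library 3 was thus above every KO library for Sall4, Lin28a, Uchl1 and Gfra1. It was below every KO library for Crabp1, and just below them for Foxo1 and Etv5. For Zbtb16, Tcl1 and Nanos3 it lay between them. The Gfra1 and Etv5 values rest on few UMIs.

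Between the pre-meiotic cells of the 2 genotypes at 260 h, 4 of 12223 genes tested were called (0.0327%), and 0 of the members. Crabp1 had the smallest unadjusted p of the members, and was the only one under 0.05 (0.0275, where 9.66% of all genes were under 0.05). It was at 297.3, 416.4 and 188.4 CPM in KO cells, against 239.3, 142.4 and 84.5 CPM in WT cells (log2 fold change 0.96 ± 0.39, adjusted p = 0.429). The lowest KO library lay below the highest WT library. Zbtb16 was at 131.3, 55.5 and 240.1 CPM in these KO cells, against 148.6, 237.4 and 256 CPM in WT cells (-0.60 ± 0.43, adjusted p = 0.724), and Uchl1 at 965.5, 884.5 and 830.9 CPM, against 1244, 1033 and 1034 CPM (-0.30 ± 0.28, adjusted p = 0.796). Neither difference passed the test.

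In KO libraries 4 of 10 were called lower and 0 higher (all genes: 10.2% lower, 13.3% higher, 23.5% in either direction), and 7 had every 360 h library below every 260 h library, as had 23.1% of all genes. The 4 were Tcl1 (1.51, 1.95 and 1.90 CPM at 360 h, against 17.4, 14.0 and 13.4 CPM at 260 h; log2 fold change -3.05 ± 0.65, adjusted p = 0.0037), Nanos3 (-2.96 ± 0.64, adjusted p = 0.00412), Zbtb16 (-2.44 ± 0.81, adjusted p = 0.0438) and Foxo1 (-1.71 ± 0.44, adjusted p = 0.0111). The median over the members was -1.75, against -0.15 over all genes. Uchl1 was at -0.43 ± 0.40 (adjusted p = 0.464) and Sall4 at -0.36 ± 0.74 (adjusted p = 0.768), with overlapping libraries. Without the pre-meiotic cells, Uchl1 (0.67), Sall4 (0.80) and Gfra1 (0.67) had positive values, none of them called. The Zbtb16 call was lost in 9 of the 12 runs without 1 library (adjusted p of up to 0.153) and without the pre-meiotic cells (-1.18, adjusted p = 0.290). Foxo1 was at adjusted p of 0.0605 without KO library 1 at 260 h and 0.0537 without KO library 1 at 360 h. The Tcl1 and Nanos3 calls held in every run.

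In WT libraries 9 of 10 members were called lower at 360 h than at 260 h, all but Gfra1, where 18.9% of all genes were called lower, 20.9% higher and 39.9% in either direction. The same 9 had no overlap between the times, as had 24.2% of all genes in this direction, and the median over the members was -2.99, against -0.10. Tcl1 had the steepest difference, 0.550, 0.189 and 0.354 CPM at 360 h against 29.8, 3.56 and 13.3 CPM at 260 h (log2 fold change -5.36 ± 0.75, adjusted p = 7.21e-05). Zbtb16 was at -4.13 ± 0.88 (adjusted p = 0.00249), Lin28a at -4.00 ± 1.17 (adjusted p = 0.0161), Etv5 at -3.06 ± 0.73 and Crabp1 at -3.00 ± 0.84. Foxo1 was at -2.98 ± 0.46 (adjusted p = 0.000177), Uchl1 at -2.53 ± 0.42 (adjusted p = 0.000304), Sall4 at -2.38 ± 0.78 (adjusted p = 0.0272) and Nanos3 at -2.34 ± 0.62 (adjusted p = 0.0076). Gfra1 was at -0.86 ± 0.61 (adjusted p = 0.277). Zbtb16, Tcl1, Uchl1, Foxo1 and Etv5 kept their calls without any 1 library. Nanos3 was at adjusted p = 0.0654 without WT library 1 at 260 h. Crabp1 was at 0.0616, 0.0516 and 0.0584 without WT library 1 at 260 h and without WT library 2 or 3 at 360 h, and Lin28a at 0.0544, 0.0786 and 0.0735 without WT library 3 at 260 h and without WT library 2 or 3 at 360 h. Sall4 was at 0.0561 and 0.0662 without WT library 1 or 3 at 260 h, and at 0.113 and 0.0963 without WT library 2 or 3 at 360 h. Without the pre-meiotic cells, Nanos3 (-0.86, adjusted p = 0.243) and Etv5 (-1.29, adjusted p = 0.192) were not called. The share of pre-meiotic cells, 30.2% and 24.88% of cells in KO and WT at 260 h, was 7.724% and 1.838% at 360 h, and its part in the other calls was not tested beyond that alternative.

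The genotype effects at the 2 times were compared by the interaction term of the same fit. It called 1 member, Uchl1, at 2.10 ± 0.57 on the log2 scale (adjusted p = 0.0445), where 5.08% of all genes were called. The genotype effect of Uchl1 was thus larger at 360 h than at 260 h. The call was lost in 8 of the 12 runs that left out 1 library, with log2 values of 1.73 to 2.29 and adjusted p of 0.0602 to 0.112, and under spike-in scaling (1.92, adjusted p = 0.130). For the other 9 members the term did not pass the test, with values of -0.63 (Nanos3) to 2.95 (Lin28a, ± 1.51).

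Within the pre-meiotic class, Spearman correlations of the levels were computed within each of 7 libraries with at least 10 pre-meiotic cells, as a description without a test, since the cells of a library share their depth and preparation. Crabp1 was negatively correlated with Zbtb16 in 6 of 7 libraries (median -0.27), with Nanos3 in 6 of 7 (-0.36), with Foxo1 in 6 of 7 (-0.25), with Lin28a in 6 of 7 (-0.23) and with Tcl1 in 5 of 6 (-0.39). The counts were 4 of 5 with Etv5 (-0.40), 5 of 6 with Gfra1 (-0.17), 5 of 7 with Uchl1 (-0.13) and 3 of 7 with Sall4 (0.04). With Kit, the receptor gene of differentiating spermatogonia, and with Stra8 it was positively correlated in 7 of 7 libraries each (medians 0.38 and 0.30). Zbtb16 was instead positively correlated with Lin28a in 7 of 7 libraries (0.38), with Tcl1 in 6 of 6 (0.43) and with Etv5 in 5 of 5 (0.33). The positive counts were 6 of 7 each with Sall4 (0.34), Nanos3 (0.29) and Uchl1 (0.18). They were 5 of 7 with Foxo1 (0.42) and 3 of 6 with Gfra1 (-0.01). With Kit, Zbtb16 was negatively correlated in 7 of 7 (-0.40).

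**Figure D5:**
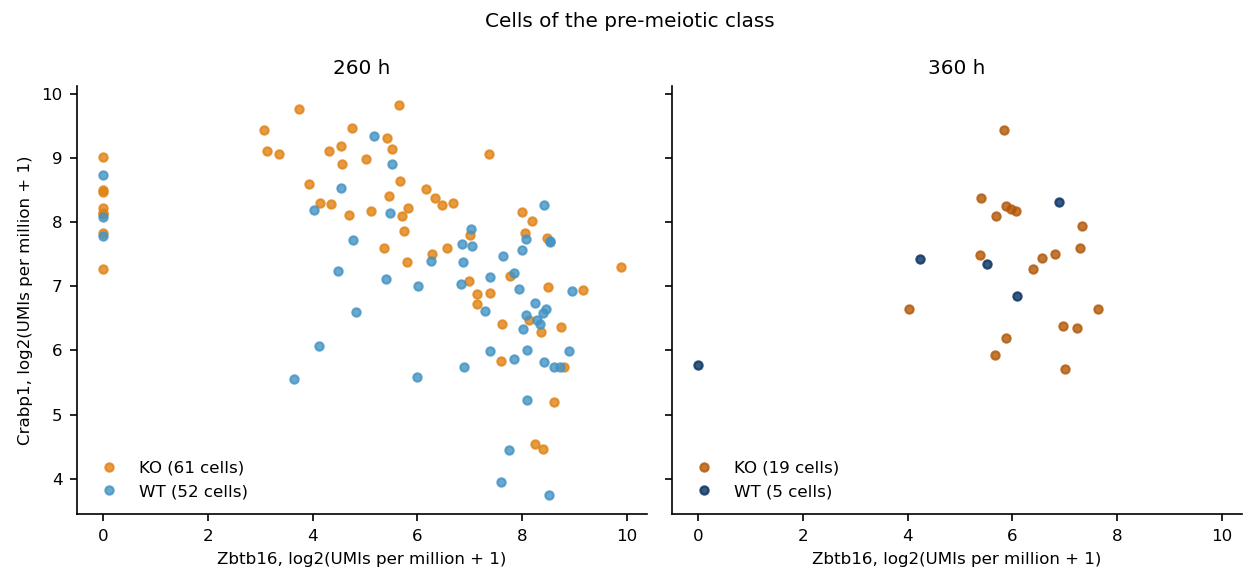
Zbtb16 (x axis) against Crabp1 (y axis), both as log2 of unscaled CPM plus 1, in the 137 cells of the pre-meiotic class, 1 point per cell, with KO and WT in different colours and 1 panel per time. Each colour pools libraries whose levels differ, so a trend over all its points also holds differences between libraries. Within libraries at 260 h (61 KO and 52 WT cells), Spearman correlations were -0.66, -0.27 and -0.74 for KO and -0.31, 0.25 and -0.18 for WT. At 360 h there are 19 KO and 5 WT cells.

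Other genes of the pre-meiotic class are given as levels, without a test. Stra8, the retinoic acid target of meiotic entry, was at 1502 and 1319 unscaled CPM in the pre-meiotic cells of KO libraries 2 and 3 at 360 h, against 67.1, 297.1 and 54.2 in KO libraries at 260 h. In WT libraries it was at 1982, 1234 and 2424 unscaled CPM at 360 h (2, 2 and 1 cells), against 60.8, 382.3 and 18.5 at 260 h. In both genotypes every 360 h level was above every 260 h level. The spermatogonial factor Dmrt1 was at 202 and 181.1 unscaled CPM in KO libraries 2 and 3 at 360 h, against 361.4, 370.1 and 387.1 at 260 h. Sohlh1, another spermatogonial factor, went the other way in these KO libraries, at 181.2 and 193.7, against 169.8, 104.5 and 138.2. Kit did so too, at 279.5 and 245.9, against 79.0, 231.3 and 101.3. The class did not lack meiotic transcripts either. The synaptonemal complex gene Sycp1 was at 650.7 and 680.2 unscaled CPM in KO libraries 2 and 3 at 360 h, against 911.1, 662.8 and 920.3 in KO libraries at 260 h. Sycp3, of the same complex, was instead higher at 360 h, at 277.3 and 271.2, against 102, 179.7 and 69.1.

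The 13 cells with the most Gfra1 UMIs held 50% or more of its 471 UMIs. Its top cell by UMIs had 30 of 478589 and belonged to WT library 3 at 360 h, in cluster 5, the library with the most UMIs, and the next had 25 of 122869 and belonged to KO library 3 at 360 h, in cluster 4. Their levels were 62.7 and 203.5 unscaled CPM, against 210.4 in the pre-meiotic cell of KO library 1 at 260 h with the most Gfra1 UMIs (20 of 95043). Of the top 10 cells by UMIs, 5 were pre-meiotic for Gfra1, against 10 of 10 for Zbtb16, Sall4, Uchl1, Crabp1, Lin28a, Nanos3 and Foxo1, 9 for Etv5 and 7 for Tcl1. Ranked by level, which takes depth into account, 7 were pre-meiotic for Gfra1, 7 for Tcl1, 9 for Etv5 and Foxo1 and 10 for the others. WT library 3 at 360 h alone held 126 Gfra1 UMIs, of which 0 were in its single pre-meiotic cell.

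Other spermatogonial genes were read from lists chosen with earlier results of these data known. Of 24 listed markers of undifferentiated spermatogonia, 20 were tested, and at 360 h 3 were higher and 3 lower in KO libraries, where 8.93% and 13.5% of all genes were. Itga6, an integrin subunit, averaged 38.7 ± 8.88 CPM in KO libraries and 5.90 ± 1.78 CPM in WT libraries (SD, n = 3 each; log2 fold change 2.72 ± 0.41, adjusted p = 0.00022). Gfra2, the receptor for the GDNF relative neurturin, averaged 0.809 ± 0.262 CPM in KO libraries and 9.17 ± 5.75 CPM in WT libraries (-3.49 ± 0.87, adjusted p = 0.00881). The tetraspanin gene Tspan33 averaged 9.06 ± 3.48 CPM in KO libraries and 25.2 ± 4.47 CPM in WT libraries (-1.47 ± 0.41, adjusted p = 0.018). The median of the list was 0.57. At 260 h 1 of the 20 was called (0.582% of all genes were called higher), Thy1, a surface marker, with 19.2, 21.2 and 15.9 CPM in KO libraries against 0.237, 1.42 and 1.75 CPM in WT libraries (3.95 ± 0.69, adjusted p = 0.00657).

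Of 20 listed markers of differentiating spermatogonia, 18 were tested, and at 360 h 3 were higher and 2 lower in KO libraries, against the same all-gene shares of 8.93% and 13.5%, with a median of 1.47. The DNA methyltransferase gene Dnmt3b averaged 31.1 ± 1.66 CPM in KO libraries and 5.63 ± 1.21 CPM in WT libraries (2.47 ± 0.37, adjusted p = 0.000219). Dmrtb1, a transcription factor gene of the switch to meiosis, averaged 113.8 ± 91.5 CPM in KO libraries and 584.3 ± 141.9 CPM in WT libraries (-2.36 ± 0.49, adjusted p = 0.00346). Taf4b, which encodes a germ-cell subunit of a general transcription complex, averaged 28.1 ± 6.15 CPM in KO libraries and 63.1 ± 23.0 CPM in WT libraries (-1.16 ± 0.31, adjusted p = 0.0135). Of 15 genes listed as partners or relatives of the members, 14 were tested, and Lin28b was the 1 called in the genotype comparisons. It was called higher at both times, where 0.582% of all genes were at 260 h and 8.93% at 360 h. Lin28b encodes the paralog of LIN28A. The 260 h levels were 72.6, 46.5 and 59.3 CPM for KO libraries, against 26.3, 26.5 and 23.1 CPM for WT libraries (log2 fold change 1.24 ± 0.26, adjusted p = 0.0245). The 360 h levels were 133.1, 106.3 and 129.5 CPM for KO libraries, against 16.3, 16.1 and 22.1 CPM for WT libraries (2.75 ± 0.27, adjusted p = 6.64e-06). The groups did not overlap at either time, and KO library 1 at 360 h, which had 0 Lin28a UMIs, had the highest Lin28b of the 12 libraries.

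Of the stage markers beside them, the 13 meiotic prophase genes had 6 higher and 0 lower in KO libraries at 360 h, among them Prdm9, the methyltransferase gene that places recombination hotspots, which averaged 65.3 ± 17.4 CPM in KO libraries and 4.29 ± 0.694 CPM in WT libraries (3.92 ± 0.52, adjusted p = 7.97e-05). Of 12 tested pachytene genes 7 were lower and 0 higher, among them the germ-cell phosphoglycerate kinase gene Pgk2, which averaged 18.8 ± 3.95 CPM in KO libraries and 246.6 ± 92.3 CPM in WT libraries (-3.72 ± 0.38, adjusted p = 8.73e-06). Over all genes tested at 360 h, 8.93% were called higher and 13.5% lower. These stage markers moved beside the members at 360 h, and their part in the members' values was not tested.

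The genes whose log2 CPM went most closely with a member over the 12 libraries are given as a description, from 6922 genes with a mean of at least 20 CPM. For Zbtb16 they were Sdc4, Tle3 and Zmym3 (Pearson r 0.99, 0.98 and 0.97), for Foxo1 Baz1b, Tnks2 and Inpp5f (0.99, 0.98 and 0.98), and for Crabp1 Cdca7, Hmgb3 and Rpl39 (0.99, 0.99 and 0.98). For Uchl1 they were Mcm5, Gpi1 and Adh5 (0.98, 0.97 and 0.97), for Sall4 Acly, Mageb4 and Sohlh1 (0.97, 0.96 and 0.93), for Lin28a Zmym3, Ddx3x and Pbx2 (0.96, 0.95 and 0.95), and for Nanos3 Incenp, Mdn1 and Arnt (0.96, 0.95 and 0.94). Gfra1, Etv5 and Tcl1 had a mean under 10 CPM and were not searched. The 12 libraries share the difference between times and the numbers of pre-meiotic cells.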

How the data were processed

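Each library's deposited table held raw UMI counts for 55450 genes and 92 spike-ins in 96 barcodes. Per the submitters' processing notes, featureCounts 1.6.4, STAR 2.5.3a and UMI-tools 1.0.0 were used, with mm10. Neither order, settings nor strand is stated there, so reads of antisense genes cannot be told apart. Only the 929 cells of the authors' deposited cell table were used, with its clusters and classes (223 barcodes were not used). Counts were summed per library and fitted with edgeR 4.0.16 (R 4.3.3; filterByExpr, 20279 genes, TMM, robust quasi-likelihood F-test, two-sided), 1 coefficient per group over 12 libraries, Benjamini-Hochberg adjustment over all genes, called under 0.05. The common biological coefficient of variation was 0.4855. The procedure was tested on simulated data. Alternatives were DESeq2 1.42.0, RLE size factors, spike-in scaling, no filter, each library left out, the replicate number as a block, fewer libraries, thinned cells and subsets of cells. The members and lists were chosen with earlier results of these data known. The text names the 10 members, Zfp541, at most 3 called genes per list and genotype comparison with the smallest p, and the 3 most correlated genes per member; somatic markers and genes of the pre-meiotic class given as context were chosen after their values were seen. Unscaled CPM are UMIs per 1e6 UMIs of a class or cluster, without TMM. No duplicate libraries were found, and no doublet caller was run.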

Additional observations from a re-analysis of the deposited data

Results flagged for a closer look

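Uchl1 differed between the times in its genotype effect, by 2.10 on the log2 scale in the interaction term (adjusted p = 0.0445 in edgeR): KO over WT was 1.91 at 360 h and -0.18 at 260 h. In the sums over all cells, the 3 KO libraries were above the 3 WT libraries at 360 h, and at 260 h the groups overlapped. Summed by class at 260 h, every KO library was below every WT library. The log2 fold change was -0.52 in early pachytene cells (edgeR adjusted p = 0.465) and -0.30 in pre-meiotic cells (0.796), so neither was called. The interaction call was lost in 8 of the 12 runs that left out 1 library, and under spike-in scaling. No cause was tested.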

How the results depend on the processing

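Over the alternatives that kept all libraries of a group or named a subset of cells, 417 of 470 values for single members kept direction and side of the threshold, 19 lost a call, 9 gained one and 25 changed sign, 0 of these with a call. The count of members called between KO and WT at 360 h (3) was 1 under spike-in scaling, 5 without the low-count filter, 1 with KO library 1 as the lone KO library and no pre-meiotic cells (its spread assumed like that of the other groups), and 1 to 7 when 1 library was left out. The count for 360 h against 260 h in KO (4) was 2 under spike-in scaling and 2 to 4 without 1 library, that in WT (9) was 6 to 9, and the interaction (1) gave 0 under spike-in scaling, 2 without the filter and 0 to 2 without 1 library. At 260 h it was 0 in every run.

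Replicate numbers did not pair the libraries (correlations of deviations -0.26 to 0.32 over 18 same-numbered pairs). With the replicate block, the members called were 0 at 260 h, 3 at 360 h, 3 in KO over time, 8 in WT over time and 1 in the interaction, Zbtb16 in KO over time (adjusted p = 0.0979) and Sall4 in WT over time (0.0603) losing their calls, and Tcl1 at 260 h having a log2 fold change of 0.21.

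Signs changed at 260 h for Tcl1 (thinned cells 0.0051, no pre-meiotic cells 0.22, early pachytene class 0.14), Etv5 (0.064, 0.56 and 0.53) and Foxo1 (pre-meiotic cells -0.27). With neither pre-meiotic cells nor WT library 3, an alternative chosen after seeing the data, Crabp1 was at -0.098, Tcl1 at 0.40 and Etv5 at 0.74. Over time, with no pre-meiotic cells and in the labelled class, Gfra1 was at 0.67 and 0.70, Sall4 at 0.80 and 0.81 and Uchl1 at 0.67 and 0.68 in KO, Gfra1 at 0.41 and 0.38 in WT, and the Gfra1 interaction at 0.27 and 0.33. With KO library 1 alone at 360 h, also chosen after seeing the data, Zbtb16 was at -1.51, Sall4 at -1.18, Etv5 at -0.39 and Lin28a, with 0 UMIs there, at a fitted -6.56 that depends on the prior count. Without 1 library the 260 h values ran from -0.72 to 0.20 for Etv5, -0.85 to 0.34 for Nanos3, -0.59 to 0.73 for Tcl1, -0.47 to 0.13 for Uchl1 and -0.82 to 0.025 for Zbtb16, those of Sall4 in KO over time from -0.94 to 0.14, and the Gfra1 interaction from -0.69 to 0.17. The cause was not tested.

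Spike-in scaling shifted the median of all genes by -0.28 at 260 h, -0.52 at 360 h, 0.19 in KO and 0.44 in WT over time, and the share of calls that were higher was 12.6%, 17.1%, 81.2% and 72.5%, against 30.8%, 39.8%, 56.6% and 52.5%. All-gene calls at 260 h (383) were 953 with DESeq2, 246 with spike-ins, 687 without the filter, 181 with only the libraries compared, 600 without pre-meiotic cells, 576 in the labelled class, 791 also without WT library 3, and 115 to 577 without 1 library. At 360 h (4554) they were 915 with KO library 1 alone and 2600 at the fewest without 1 library. In KO over time (4759) they were 2567 with spike-ins and 2764 at the fewest. The interaction (1030) had 2174 with DESeq2, 408 with spike-ins, 1581 without the filter and 482 at the fewest.

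Etv5, Gfra1 and Tcl1 rest on 400, 471 and 754 UMIs, the fewest of the members, and what difference was detectable in them was not measured.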
